A study of Mus musculus with 12 samples.

Results

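Cells given C13 and TDP-43 aggregates together were compared with cells given neither, in newly made and in total RNA. The comparison used 6 of the 12 libraries of the series, which are the 3 labelled C13 with TDP-43 and the 3 labelled DMSO with sham. The series counted RNA by SLAM-seq in SIM-A9, a mouse microglial cell line of the C57BL/6 strain, in 4 groups of 3 libraries. Cells of both groups compared were first given 10 µM polymyxin B for 1 h, an antibiotic that binds bacterial endotoxin, and were then given 10 µM C13 or DMSO, its solvent, for 1 h. C13 is named in the series title as an inhibitor of the kinase MOK. Next, 5 µg/mL of TDP-43 aggregates or of a sham preparation was added for 2.5 h, and 100 µM 4-thiouridine was present for a further 90 min, so that cells had 4 h of aggregates or sham in all. All additions were made in serum-free medium. The study is of 1 cell line, and the control cells also received polymyxin B, DMSO and the sham preparation, so the comparison is not one with untouched cells. The other 2 groups, DMSO with TDP-43 and C13 with sham, are used below only to show where a gene stood when 1 of the 2 agents was given.

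Microglia are the macrophages of the brain, and they answer foreign or aggregated material through Toll-like receptors and nucleic acid sensors that switch on NF-kB, type I interferon and their target genes. NRF2 is a transcription factor that is freed from its inhibitor KEAP1 by oxidants and electrophiles and then switches on genes of heme breakdown and of glutathione and thioredoxin metabolism. In SLAM-seq, RNA made in the presence of 4-thiouridine carries base changes in the reads after alkylation, so such reads count newly made RNA, while all reads together count the whole pool. Because the pool holds RNA made before the treatment, new RNA can move before total RNA does.

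The 6 libraries held 25701443 to 38318656 total reads and 767433 to 2722812 nascent reads. Nascent reads made up 3.40%, 7.11% and 2.74% of the 3 libraries of DMSO with sham and 2.99%, 3.30% and 2.44% of those of C13 with TDP-43. The means were 4.42% ± 2.35 and 2.91% ± 0.435 (SD, n = 3), and the groups overlapped (two-sided exact permutation test, p = 0.4, where 3 against 3 cannot go below 0.1). Replicate 2 of DMSO with sham set most of the difference, which was -1.51 percentage points with it and -0.166 without it. On the 2 main axes of variation, replicate 3 of C13 with sham and replicate 3 of DMSO with TDP-43 stood apart, and neither is in the groups compared, although both enter the estimate of the spread. Mitochondrial ribosomal RNA, which can show RNA quality, took 1.17% to 1.49% of all reads in the control libraries and 1.29% to 1.54% in the treated ones. Of nascent reads it took 1.40%, 0.912% and 1.75% in the control and 1.69%, 2.17% and 2.05% in the treated libraries, and its part in the nascent results was not tested.

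The microglial label was checked against its markers in total RNA. Of 14 microglial and myeloid markers, 11 were above 10 CPM (reads scaled to a common library size) in all 6 libraries, among them the growth factor receptor gene Csf1r and the protease gene Ctss. The homeostatic microglial markers P2ry12 and Tmem119 were low, at 0.11 to 12.6 CPM and 0.0541 to 1.45 CPM. The summed level of the 14 markers was 2827 to 2954 CPM in DMSO with sham and 2923 to 3093 CPM in C13 with TDP-43. Of markers of other cells, 5 of 6 neuronal, 5 of 5 astrocyte, 5 of 6 oligodendrocyte and 6 of 7 fibroblast and endothelial genes stayed under 1 CPM in all 6 libraries, and the exception among oligodendrocyte genes, Mbp, had 10.1 to 29.4 CPM. Their summed levels in control and in treated libraries were 0.650 to 4.17 and 0.112 to 0.870 CPM for neuronal, 0 to 0.487 and 0 to 0.145 CPM for astrocyte, 10.7 to 26.8 and 21.0 to 29.4 CPM for oligodendrocyte, and 0 to 0.108 and 0 to 1.57 CPM for fibroblast and endothelial markers.

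Which gene classes differed from control when both agents were given was read from each table scaled by itself. No single gene passed the test. The edgeR quasi-likelihood test, with p-values adjusted over all tested genes and a threshold of 0.05, called 0 of 7078 genes in nascent RNA (percent called 0) and 0 of 11827 genes in total RNA (percent called 0). At an unadjusted p under 0.05 there were 55 higher (0.777%) and 117 lower (1.65%) genes in nascent RNA, together 2.43% of those tested. In total RNA there were 95 higher (0.803%) and 133 lower (1.12%) genes, together 1.93%. DESeq2 called 4 nascent genes (0.0565%), Mff, Mrps10, Ypel3 and Rad9a, all lower with C13 and TDP-43. It called 7 genes in total RNA (0.0592%), Bcor, Matk, Gm11769, Tns2, Cep95, Adal and Mmp15. Of these, Adal and Mmp15 were higher and the others lower, and only Tns2 and Adal are named by the rule used below. The DESeq2 log2 fold changes were -33.73 for Bcor, -32.24 for Matk, -21.37 for Gm11769, -18.67 for Cep95 and 15.04 for Mmp15. Those of Bcor and Matk are larger than libraries of this read number could show. Such values are not read as folds, and what lies behind these calls was not tested. The smallest adjusted p in edgeR was 0.288, for nascent Mff. So the words higher and lower below describe values and not calls. The gene classes described below are given by their medians, to be read beside those of all tested genes. Many are also given by counts of their members, and some by the median alone. Further classes have their medians only in the plot of class medians.

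Interferon-stimulated genes and inflammatory mediators had the highest medians among the gene classes with over 10 tested members in both tables, and cytosolic ribosomal proteins had the lowest median in total RNA, -0.21, which was 0.15 without DMSO with sham replicate 2. The median log2 fold change of C13 with TDP-43 against DMSO with sham was -0.0024 over all nascent genes and -0.024 over all genes in total RNA. In nascent RNA 49.9% of tested genes had a fold change above 0, and in total RNA 46.9%. Genes whose 3 libraries of one group all lay above the 3 of the other made up 5.1% (higher) and 5.99% (lower) of nascent genes, and 3.79% (higher) and 4.3% (lower) of genes in total RNA. If nascent counts are instead scaled to total reads, which keeps the difference in nascent share, the median of all nascent genes is -0.69, and the split of genes at an unadjusted p under 0.05 is 13 higher and 242 lower. Unless stated otherwise, overlap is judged below with each table scaled by itself.

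**Figure D1:**
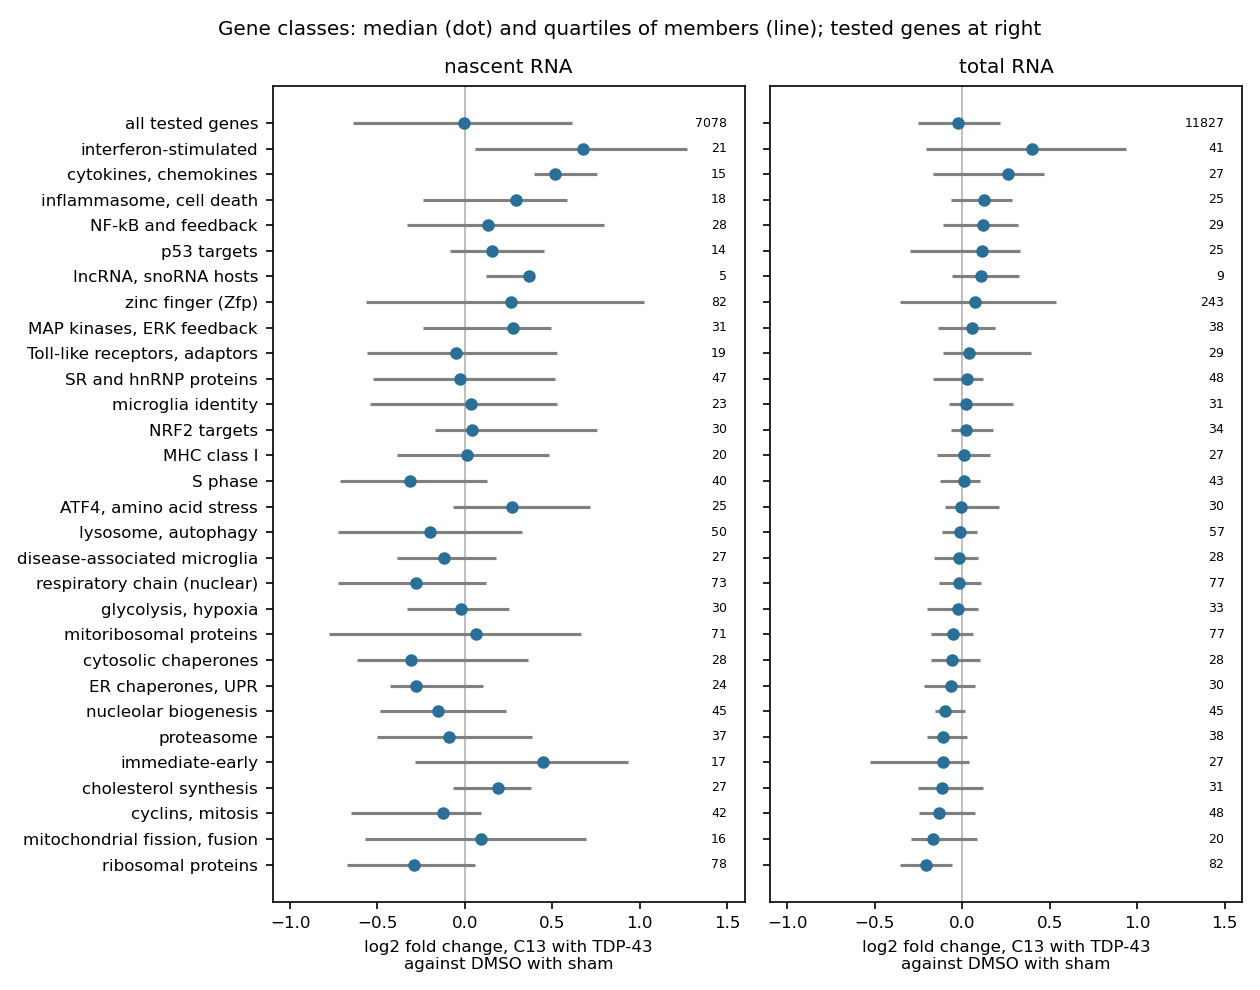
Median log2 fold change (dot) and the range between the quartiles of the members (line) for 29 gene classes and all tested genes, C13 with TDP-43 against DMSO with sham, in nascent (left) and total RNA (right), with the number of tested genes at the right of each row. The class of interferon-stimulated genes has the highest median in both panels, 0.67 and 0.40, and most other medians in total RNA lie close to that of all genes, -0.024.

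Interferon-stimulated genes carry out and amplify the antiviral response. With each table scaled by itself, their summed level was higher in every C13 with TDP-43 library than in every control library. The sum is over all 49 listed genes, tested or not, so genes of high level, such as nascent Rsad2 described below, weigh most in it. In nascent RNA the summed level of the list was 1532, 1128 and 1885 CPM in DMSO with sham and 2479.7, 3339 and 2841 CPM in C13 with TDP-43. In total RNA it was 869, 1003 and 944 CPM and 1184, 1230.1 and 1228 CPM. With this scaling neither table shows an overlap of the groups. Scaled to total reads, the nascent sum of DMSO with sham replicate 2, which had the highest nascent share, lies within the treated range. Of 21 tested nascent members, 16 had a fold change above 0, with a median log2 fold change of 0.67, and in total RNA 30 of 41 did, with a median of 0.40. Of those members 3 nascent genes were higher without overlap, which is 14.3% against 5.1% of all nascent genes, and 7 genes in total RNA, which is 17.1% against 3.79%. Lower without overlap were 1 nascent member (4.76% against 5.99%) and 1 in total RNA (2.44% against 4.3%). The nascent median was 0.44 when scaled to total reads, against -0.69 for all genes. It ranged from 0.53 without C13 with TDP-43 replicate 2 to 1.38 without DMSO with sham replicate 3, and it was 0.23 without the filter on low counts. The median in total RNA ranged from 0.23 without C13 with TDP-43 replicate 3 to 0.60 without C13 with TDP-43 replicate 1. In bulk RNA a change in every cell and a change in the number of responding cells cannot be told apart.

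Rsad2, Isg15 and Cxcl10 were higher without overlap in 1 of the 2 tables, and the 250 bases before their starts are shown because all of these windows hold the core of the interferon-stimulated response element, which is GAAA, any 2 bases and GAAA, read on both strands. The sequences are from RefSeq in the build GRCm38.p6, 5′ to 3′ on the strand of the gene, with motif matches in capitals. The window of Cxcl10 is chr5:92348890-92349139, on the minus strand. That of Rsad2 is chr12:26456453-26456702, on the minus strand. That of Isg15 is chr4:156200819-156201068, on the minus strand.
Cxcl10: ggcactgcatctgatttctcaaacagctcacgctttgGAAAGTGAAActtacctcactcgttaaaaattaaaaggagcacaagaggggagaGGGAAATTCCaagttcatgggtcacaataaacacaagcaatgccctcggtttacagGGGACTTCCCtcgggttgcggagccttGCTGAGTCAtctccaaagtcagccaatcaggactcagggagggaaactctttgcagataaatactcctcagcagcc
Rsad2: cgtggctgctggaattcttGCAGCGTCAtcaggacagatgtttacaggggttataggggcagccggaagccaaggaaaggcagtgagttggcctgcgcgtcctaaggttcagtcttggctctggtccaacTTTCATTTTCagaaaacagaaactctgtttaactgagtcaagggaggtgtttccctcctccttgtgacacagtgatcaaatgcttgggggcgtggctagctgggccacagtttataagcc
Isg15: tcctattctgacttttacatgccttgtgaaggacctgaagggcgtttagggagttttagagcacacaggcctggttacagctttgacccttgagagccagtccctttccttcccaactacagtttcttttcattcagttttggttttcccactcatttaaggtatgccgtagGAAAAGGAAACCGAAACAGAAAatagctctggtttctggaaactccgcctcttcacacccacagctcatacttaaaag
In Cxcl10 the response element core begins 213 bases before the start. The other capitals of Cxcl10 are 2 matches to the NF-kB motif, which begin 159 and 103 bases before the start, and 1 match to the core of the antioxidant response element, TGACNNNGC, on the reverse strand. In Rsad2 the interferon core lies on the reverse strand and begins 120 bases before the start, and the other capitals are the antioxidant core on the reverse strand. In Isg15 there are 3 overlapping matches, which begin 78, 72 and 66 bases before the start. Of all 27025 genes with a window of this length, 3.46% hold that core in any of their windows, and of the 36 genes of the interferon list that matched a window by symbol, 19 do. The windows shown were picked for holding it. Ifi203, a member with lower values, also holds the core in 1 of its 2 windows, 35 bases before the start, and Dtx3l, a member with higher values, holds no match. A match is a string of letters and shows no binding.

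Rsad2, also called viperin, is an antiviral enzyme (chr12:26442746-26456452 in GRCm38). Its nascent level was 434, 143 and 388 CPM in DMSO with sham and 900.3, 960.3 and 807 CPM in C13 with TDP-43, so that each treated library was above each control (log2 fold change 1.47, SE 0.55). Total Rsad2 was at 96.8, 78.6 and 63.1 CPM and 146, 120.3 and 95.1 CPM, and the lowest treated library was just under the highest control (log2 fold change 0.60, SE 0.26). Isg15 encodes a ubiquitin-like protein that is joined to other proteins after interferon (chr4:156199424-156200818). Its nascent level was 162, 92.7 and 197 CPM in control and 366, 519 and 331 CPM with both agents, with no overlap (log2 fold change 1.43, SE 0.81). In total RNA its level was 27.9, 43.9 and 27.2 and 72.4, 65.8 and 39.3 CPM, where 1 treated library lay within the control range.

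Cxcl10, a chemokine that attracts T cells and is made in answer to interferon and NF-kB, lies at chr5:92346638-92348889. In total RNA it had 16.7, 19.6 and 20.7 CPM in control and 22.7, 44.1 and 68.9 CPM with both agents (log2 fold change 1.25, SE 0.40), without overlap, although the treated libraries differed widely among themselves. Its nascent level was 90.7, 18.6 and 0.921 CPM in control and 34.2, 26.7 and 48.3 CPM with both agents, so the control libraries alone span the treated ones. Dtx3l, an E3 ubiquitin ligase that works with PARP9, had 56.6, 43.4 and 77.5 CPM in control and 77.4, 127 and 135 CPM with both agents in total RNA (log2 fold change 0.94, SE 0.35), with 1 treated library just under the highest control. In contrast, Ifi203, of the HIN-200 family of DNA-binding interferon-inducible proteins, had 19.7, 4.63 and 9.50 CPM in control and 2.25, 1.34 and 1.01 CPM with both agents in total RNA (log2 fold change -2.88, SE 0.86), all treated libraries being lower. Ifi203 overlaps another gene on the same strand. Irf7, the regulator that amplifies interferon output, had 3.90, 11.5 and 4.27 CPM in control and 5.30, 6.79 and 3.83 CPM with both agents in total RNA, within one range, and its counts share a common factor. Ifnb1, the gene of interferon beta itself, had 0 reads in all 6 libraries in both tables.

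The levels of these genes with 1 agent alone are set beside those with both, with the caution that each comparison uses the same DMSO with sham libraries. In total RNA, Cxcl10 had 19.0 ± 2.09 CPM in DMSO with sham, 36.1 ± 11.3 CPM in DMSO with TDP-43, 10.2 ± 3.66 CPM in C13 with sham and 45.2 ± 23.2 CPM in C13 with TDP-43 (SD, n = 3). Nascent Rsad2 had 322 ± 156, 915 ± 488, 398 ± 126 and 889 ± 77.2 CPM in the same order (SD, n = 3). Nascent Isg15 had 150.5 ± 53.1, 202 ± 56.5, 71.7 ± 72.8 and 406 ± 99.9 CPM, highest with both agents (SD, n = 3). Over the list, the nascent median log2 fold change against DMSO with sham was 0.62 with aggregates alone, -0.82 with C13 alone and 0.67 with both. In total RNA these medians were 0.30, -0.13 and 0.40. By summed level the nascent list had 1515 ± 379, 2756 ± 475, 1698 ± 668 and 2887 ± 432 CPM in the group order above (SD, n = 3). So the mean sum with C13 alone was not below control, unlike the median. In total RNA the sums were 939 ± 66.8, 1089 ± 56.9, 860 ± 42.6 and 1214 ± 26.1 CPM (SD, n = 3). Each group with 1 agent alone holds 1 of the 2 libraries that stood apart. Whether the joint log2 fold change differs from the sum of the single log2 fold changes was asked by the interaction term of the same fit. For this term edgeR called 0 genes in either table, with an unadjusted p under 0.05 for 537 nascent genes (7.59%) and 941 genes in total RNA (7.96%). Whether levels in CPM add up was not tested.

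**Figure D2:**
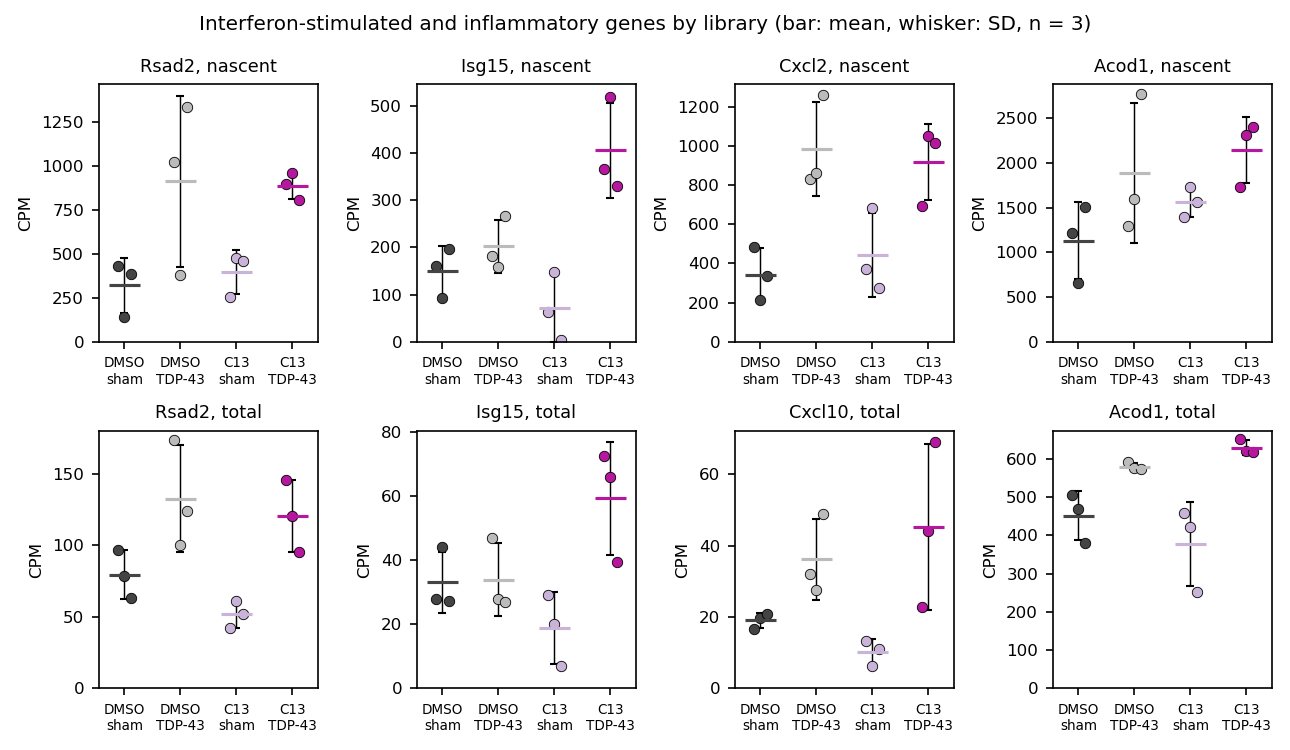
Level in CPM of Rsad2, Isg15, Cxcl2 and Acod1 (nascent, upper row) and of Rsad2, Isg15, Cxcl10 and Acod1 (total RNA, lower row) in each of the 12 libraries (points), with the mean (bar) and SD (whisker) of each group of 3. Nascent Rsad2 lies between 807 and 960.3 CPM in C13 with TDP-43 and between 143 and 434 CPM in DMSO with sham, while total Rsad2 overlaps between these groups.

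Inflammatory cytokines, chemokines and enzymes also had more members above 0 than below it. Of 15 tested nascent members 12 were above 0, with a median log2 fold change of 0.52, and of 27 members in total RNA 18 were, with a median of 0.26. The summed nascent level was 8601, 5676 and 11174 CPM in control and 9518, 12375 and 11891 CPM with both agents, and these ranges overlap, as do those in total RNA. Without overlap, 3 nascent members were higher (20% against 5.1% of all nascent genes) and 1 lower (6.67% against 5.99%). In total RNA 4 were higher (14.8% against 3.79%) and 1 lower (3.70% against 4.3%). The nascent median was 0.048 when scaled to total reads, and it was 0.29 without DMSO with sham replicate 2 and 0.31 without C13 with TDP-43 replicate 2. In total RNA it was 0.14 without C13 with TDP-43 replicate 1 and 0.16 without its replicate 2.

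Cxcl2, a chemokine that attracts neutrophils, and Acod1, which makes the anti-inflammatory metabolite itaconate, stood out in this class. Nascent Cxcl2 had 483, 212 and 335 CPM in control and 694, 1048 and 1013 CPM with both agents, without overlap (log2 fold change 1.42, SE 0.49), and in total RNA it had 78.0, 58.0 and 92.7 and 64.7, 114 and 109.9 CPM, with overlap. Its window, chr5:90903649-90903898 on the plus strand in GRCm38.p6 from RefSeq, is shown because it holds the NF-kB motif, in capitals, which was searched after the data had been seen. A forward match begins 97 bases and an overlapping reverse match 96 bases before the start.
Cxcl2: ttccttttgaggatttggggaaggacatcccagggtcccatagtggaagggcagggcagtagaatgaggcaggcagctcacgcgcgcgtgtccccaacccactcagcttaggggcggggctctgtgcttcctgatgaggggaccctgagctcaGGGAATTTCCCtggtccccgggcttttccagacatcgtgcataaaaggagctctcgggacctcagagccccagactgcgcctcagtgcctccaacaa
The NF-kB motif was found in 4.46% of the 27025 genes, in 6 of the 21 genes of the cytokine list that matched a window and in 12 of the 26 of the NF-kB list. All nascent counts of Cxcl2 are even. Acod1 was higher without overlap in both tables. Its nascent level was 1216, 662 and 1508 CPM in control and 1726, 2310.0 and 2406 CPM with both agents (log2 fold change 0.93, SE 0.42), and its total level was 507, 469 and 380.3 and 653, 619 and 617 CPM (log2 fold change 0.48, SE 0.21). With C13 alone, Acod1 had 377 ± 110.1 CPM in total RNA, against 452 ± 64.8 CPM in DMSO with sham (SD, n = 3). Before scaling, Acod1 had 47996 reads in total RNA in DMSO with sham and 53982 with aggregates alone. It had 27217 with C13 alone and 59673 with both, and the groups differ in total reads in all.

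Other mediators were higher in fewer libraries or in one table alone. Tnf, which encodes tumour necrosis factor, had 1228, 379.7 and 1762 CPM in control and 1709, 1990.2 and 2285 CPM with both agents in nascent RNA, where the control libraries spanned a wide range. Total Tnf was at 68.5, 55.8 and 73.4 and 73.4, 102 and 86.3 CPM, with the lowest treated library at the level of the highest control (log2 fold change 0.40, SE 0.25). Ccl5, a chemokine for T cells, had 2.66, 3.00 and 1.55 CPM in control and 8.44, 6.12 and 4.44 CPM with both agents in total RNA, without overlap (log2 fold change 1.39, SE 0.54), and was not tested in nascent RNA. The macrophage chemokine Ccl4 had 254, 83.2 and 215 and 94.1, 456 and 298 CPM in nascent RNA, with overlap. Il1b, the gene of interleukin 1 beta, had 45.4, 35.4 and 52.6 CPM in control and 50.6, 39.2 and 52.6 CPM with both agents in total RNA, within one range. Il6 had at most 0.241 CPM in total RNA and 0 nascent reads in these libraries, and Nos2, the inducible nitric oxide synthase, had 1.96, 6.28 and 7.82 and 1.21, 6.88 and 3.71 CPM in total RNA.

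Genes of the NF-kB pathway itself differed little as a class, with a nascent median of 0.13 (18 of 28 above 0) and a median of 0.12 in total RNA (18 of 29 above 0). The nascent median was -0.50 when scaled to total reads and -0.057 without C13 with TDP-43 replicate 3. In total RNA the median was 0.014 without C13 with TDP-43 replicate 3 and 0.28 without its replicate 1. Without overlap, 4 nascent members were higher (14.3% against 5.1% of all nascent genes) and 1 lower (3.57% against 5.99%), and in total RNA 3 were higher (10.3% against 3.79%) and 2 lower (6.90% against 4.3%). Nfkbie, which encodes the NF-kB inhibitor IkB-epsilon, had 27.7, 29.0 and 16.6 CPM in control and 40.6, 47.0 and 40.1 CPM with both agents in total RNA (log2 fold change 0.80, SE 0.34), without overlap there or in nascent RNA, where it had 8.25, 31.8 and 7.37 and 56.2, 86.6 and 53.2 CPM. Tnfaip2, a gene induced by tumour necrosis factor, had 487, 677 and 523 and 806, 1084 and 870.0 CPM in nascent RNA and 613, 581 and 673 and 747, 858 and 732 CPM in total RNA, also without overlap, although its nascent log2 fold change of 0.71 (SE 0.42) was -0.046 when scaled to total reads. Nfkbia, which encodes IkB-alpha, had 1529.8, 756 and 1857 CPM in control and 1939, 2769.9 and 2331 CPM with both agents in nascent RNA, the treated libraries being higher, and overlapped in total RNA. Tnfaip3, which encodes the deubiquitinase A20, had 0.190, 0.975 and 2.17 CPM in control and 2.73, 0.335 and 2.96 CPM with both agents in total RNA, with overlap, and counts that are all even. Irak2, a kinase that relays Toll-like receptor signals, had 114, 87.9 and 103 and 445, 241 and 312 CPM in nascent RNA, without overlap. Its nascent and total counts share a common factor of 2 or more, so fewer independent reads stand behind them.

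Of the targets of NRF2, single genes rather than the class had higher values. The class had a nascent median of 0.039 (16 of 30 members above 0) and a median of 0.020 in total RNA (17 of 34), and the nascent median was -0.60 when scaled to total reads and -0.072 without C13 with TDP-43 replicate 3. Of the nascent members 6 were higher without overlap (20% against 5.1% of all nascent genes) and 1 lower (3.33% against 5.99%). In total RNA 2 were higher (5.88% against 3.79%) and 0 lower (0% against 4.3%). Hmox1, heme oxygenase 1, which breaks down heme, lies at chr8:75093621-75100589. It had 526, 784 and 1142 CPM in control and 1665, 3136 and 1768 CPM with both agents in nascent RNA, every treated library being above every control (log2 fold change 1.42, SE 0.48). That order holds with the nascent table scaled by itself. Scaled to total reads, DMSO with sham replicate 2 lies within the treated range of nascent Hmox1. Total Hmox1 was at 299, 592 and 313 and 811, 892 and 445 CPM, and 1 control library lay among the treated ones (log2 fold change 0.84, SE 0.37).

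Srxn1, sulfiredoxin, which repairs oxidised peroxiredoxins, followed the same order. Its nascent level was 374, 266 and 282 CPM in control and 672, 717 and 462 CPM with both agents, without overlap (log2 fold change 1.01, SE 0.46), and its total level was 194, 256 and 199.7 and 334, 348 and 227 CPM, with 1 treated library in the control range. Sqstm1, the autophagy receptor p62 that also binds KEAP1, had 807, 969 and 896 and 1511, 1358 and 1486 CPM in nascent RNA and 714, 809.5 and 860.2 and 895, 934 and 977 CPM in total RNA, without overlap in either, although its nascent log2 fold change of 0.70 (SE 0.41) was -0.017 when scaled to total reads. Gclm, a subunit of the enzyme that limits glutathione synthesis, had 92.4, 65.3 and 145 and 169.8, 195 and 153 CPM in nascent RNA, also without overlap. Scaled to total reads, the groups overlap for nascent Srxn1 and Gclm. Txnrd1, thioredoxin reductase 1, went against these, with 416, 449 and 437 CPM in control and 228, 325 and 333 CPM with both agents in nascent RNA. Total Txnrd1 was at 279.5, 292 and 263 and 306, 294 and 339 CPM, the treated libraries being slightly higher.

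For Hmox1 and Srxn1 the mean nascent level with aggregates alone was nearer to control, and that with C13 alone was nearer to the joint group. Nascent Hmox1 had 817 ± 309 CPM in DMSO with sham, 1013 ± 239 CPM in DMSO with TDP-43, 1720.0 ± 988 CPM in C13 with sham and 2189.6 ± 821 CPM in C13 with TDP-43 (SD, n = 3). Nascent Srxn1 had 307 ± 58.1, 322 ± 69.0, 588 ± 73.1 and 617 ± 136 CPM in the same order (SD, n = 3). The log2 fold changes of nascent Hmox1 against DMSO with sham were 0.31 with aggregates alone, 1.07 with C13 alone and 1.42 with both. For nascent Cxcl2 they were 1.52, 0.37 and 1.42, so its value with aggregates alone was the one close to the joint value. The antioxidant core TGACNNNGC was found in 9 of the 30 NRF2 targets that matched a promoter window by symbol and in 11.5% of the 27025 genes.

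**Figure D3:**
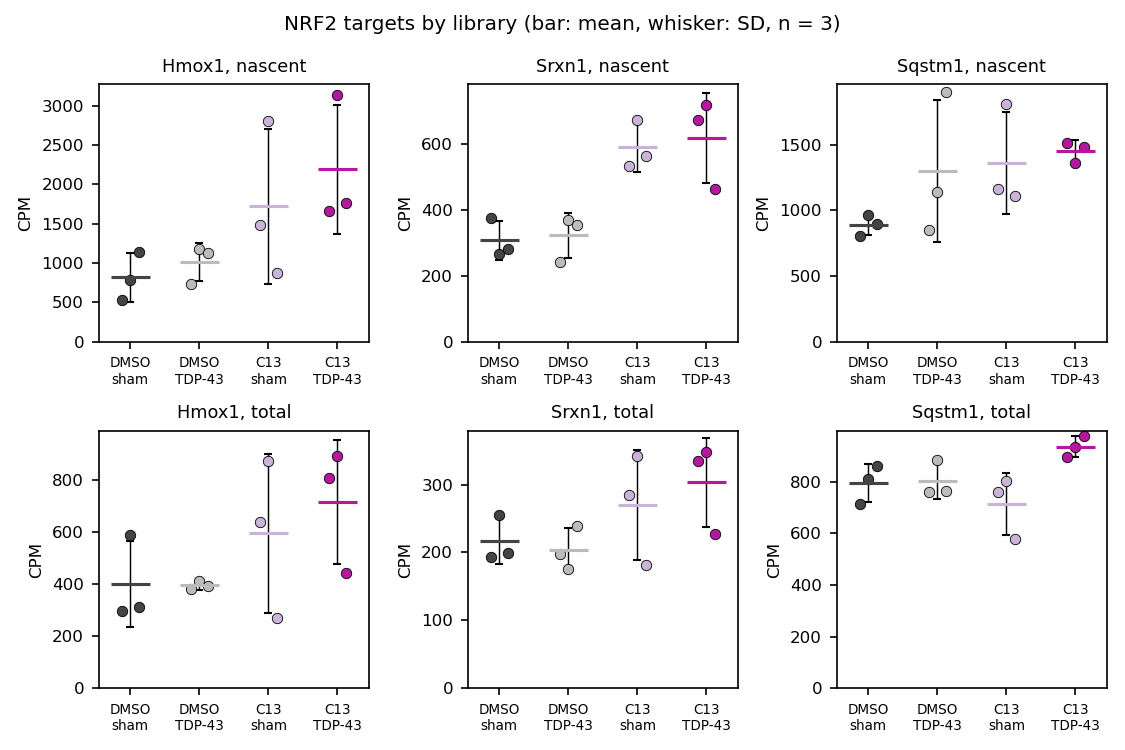
Level in CPM of 3 NRF2 targets in each of the 12 libraries (points), with the mean (bar) and SD (whisker) of each group of 3, nascent in the upper and total RNA in the lower row. Nascent Hmox1 lies between 1665 and 3136 CPM in C13 with TDP-43 and between 526 and 1142 CPM in DMSO with sham.

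Cytosolic ribosomal proteins, which build the ribosome, had more members below 0 than above it in both tables. Of 78 tested cytosolic ribosomal protein genes 55 were below 0 in nascent RNA (median -0.29), and of 82 in total RNA 66 were, with a median of -0.21. In nascent RNA 10 of them were lower without overlap and 1 higher, which is 12.8% and 1.28% against 5.99% and 5.1% of all nascent genes. In total RNA 0 were lower without overlap (0% against 4.3%) and 1 higher (1.22% against 3.79%). The summed nascent level was 30522, 46376 and 28685 CPM in control and 30574, 28294 and 26148 CPM with both agents, and the total level 46490.4, 70994 and 38564 and 59953, 45882 and 35188 CPM. Replicate 2 of DMSO with sham, which also had the highest nascent share, was the highest in both tables, and without it the medians were -0.051 in nascent and 0.15 in total RNA. In total RNA the median without C13 with TDP-43 replicate 3 was -0.013.

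Of the ribosomal genes, Rps14, a protein of the small subunit, had 2124, 5980.0 and 1565 CPM in control and 1002, 899 and 1027 CPM with both agents in nascent RNA, with no overlap and a narrow spread among treated libraries (log2 fold change -1.72, SE 0.48). Total Rps14 was at 3658, 7834 and 3651 and 5144, 4479 and 3095 CPM, with overlap. All counts of Rps14 are multiples of 5. Rpl7a, of the large subunit, had 251, 916 and 210.0 and 194, 105 and 60.4 CPM in nascent RNA (log2 fold change -1.94, SE 0.67). Without DMSO with sham replicate 2 the nascent log2 fold changes were -0.94 for Rps14 and -0.97 for Rpl7a. Ribosomal protein genes have many near-identical processed copies in the genome, so how the authors placed shared reads may affect these values. Rps27 was an exception, with 0 nascent reads in the 3 control libraries and 36 in the 3 treated ones, all multiples of 3, and 2.09, 1.38 and 1.99 and 1.81, 1.34 and 1.48 CPM in total RNA.

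Nuclear-encoded subunits of the respiratory chain had a nascent median of -0.28 (43 of 73 below 0) and a median of -0.021 in total RNA. Without overlap, 7 nascent members were lower (9.59% against 5.99% of all nascent genes) and 2 higher (2.74% against 5.1%). In total RNA 0 of 77 were lower (0% against 4.3%) and 5 higher (6.49% against 3.79%). Atp5e, the epsilon subunit of ATP synthase, had 157, 141 and 34.1 CPM in control and 18.3, 8.10 and 7.25 CPM with both agents in nascent RNA (log2 fold change -3.29, SE 0.92). Ndufv2, a subunit of complex I, had 168, 141 and 193 and 31.8, 51.8 and 26.6 CPM (log2 fold change -2.18, SE 0.85). Both were lower in every treated library in nascent RNA, and both overlapped in total RNA. Among the 71 tested mitochondrial ribosomal proteins 7 were lower without overlap (9.86% against 5.99%) and 2 higher (2.82% against 5.1%), while the median was 0.063. In total RNA 0 of 77 were lower without overlap (0% against 4.3%) and 2 higher (2.60% against 3.79%). Mrps10 had 327, 177 and 302 CPM in control and 0, 25.9 and 14.5 CPM with both agents in nascent RNA (log2 fold change -4.28, SE 1.07), but 252, 177 and 282 and 226, 267 and 303 CPM in total RNA, within one range. The counts of Mrps10 share a common factor of 2 or more. Mrpl28 had 473, 41.6 and 174 CPM in control and 13.4, 0 and 0 CPM with both agents in nascent RNA, and 177, 161 and 194 and 186, 142 and 186 CPM in total RNA. Before scaling, Mrps10 had 1248 nascent reads in DMSO with sham, 448 with aggregates alone, 196 with C13 alone and 44 with both. For Mrpl28 these were 885, 414, 567 and 11, and the groups differ in nascent reads in all.

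The gene with the smallest p in nascent RNA was Mff, mitochondrial fission factor, which brings the fission enzyme DRP1 to the mitochondrial surface (chr1:82724890-82752394, with 1 overlapping gene on each strand). Nascent Mff had 183, 355 and 238 CPM in DMSO with sham and 7.33, 4.86 and 7.25 CPM in C13 with TDP-43 (log2 fold change -5.30, SE 0.98, edgeR adjusted p = 0.288). The treated libraries were all far below the controls, with 6 nascent reads each against 222, 1050 and 258. All 12 nascent counts of Mff are multiples of 6, so fewer independent reads may stand behind its p-values than edgeR and DESeq2 assume. In total RNA Mff had 171, 212 and 197 and 152, 199 and 240.2 CPM, within one range. With aggregates alone nascent Mff had 10.0, 7.85 and 11.6 CPM, and with C13 alone 193, 95.6 and 23.8 CPM. The edgeR adjusted p of nascent Mff was 0.0473 with only the 6 libraries compared in the fit and 0.0354 without the 2 libraries that stood apart. In the test of nascent reads against the remaining reads of the same gene, edgeR called 0 of 7078 genes (40 higher, 0.565%, and 119 lower, 1.68%, at an unadjusted p under 0.05), and Mff had an adjusted p of 0.0661. With only the 6 libraries in that test, Mff was its 1 call, at an adjusted p of 0.0201.

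Several genes had nascent reads in control and none with both agents. Ypel3, of the yippee-like family, had 102, 96.0 and 6.45 CPM in nascent RNA in control and 0 reads in all 3 treated libraries. Against a limit of 3 reads over the group, this is at least 75.8-fold below the pooled control level of 79.0 CPM. Replicates 1 and 2 set most of that level, and replicate 3, at 6.45 CPM, lies far below it. Tmem116, a membrane protein, had 19.8, 32.5 and 44.2 CPM in control and likewise 0 reads, with nascent counts that are all multiples of 3. Rad9a, part of the clamp that senses damaged DNA, had 9.07, 12.8 and 38.7 CPM and 0 reads, at least 16.6-fold below the pooled control level. These limits cover counting error only and not the spread among control libraries. In total RNA Ypel3 had 94.3, 92.5 and 63.2 and 86.3, 96.5 and 46.3 CPM, with overlap, while Rad9a had 3.36, 7.82 and 7.09 and 2.93, 2.77 and 1.94 CPM, lower in every treated library (log2 fold change -1.26, SE 0.48). Rad9a overlaps 1 gene on the opposite strand, and Tmem116 overlaps genes on both strands. Before scaling, Ypel3 had 72 nascent reads with aggregates alone and 43 with C13 alone, against 415 in DMSO with sham. For Tmem116 these were 39 and 81 against 168, and for Rad9a 104 and 70 against 91. The groups also differ in nascent reads in all.

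Traf4, an adaptor of the tumour necrosis factor receptor family, and Usp37, a deubiquitinase of the cell cycle, were also low. Traf4 was lower without overlap in both tables, with 19.0, 32.1 and 105 CPM in control and 2.44, 2.43 and 1.21 CPM with both agents in nascent RNA (log2 fold change -4.59, SE 1.38) and 33.2, 32.3 and 46.5 and 21.4, 20.6 and 24.6 CPM in total RNA (log2 fold change -0.75, SE 0.25). Nascent Usp37 had 109 ± 97.2 CPM in control and 4.33 ± 3.92 CPM with both agents (SD, n = 3), without overlap. Before scaling, Traf4 had 232 nascent reads in DMSO with sham, 30 with aggregates alone, 63 with C13 alone and 6 with both. For Usp37 these were 410, 43, 68 and 11, and the groups differ in nascent reads in all. Hnrnpc, an abundant RNA-binding protein of the hnRNP family, had 1640.3, 1637 and 1174 CPM in control and 756, 702 and 567 CPM with both agents in nascent RNA (log2 fold change -1.14, SE 0.49), with 1468, 1485 and 1618 and 1523, 1723 and 1722 CPM in total RNA. With 1 agent alone nascent Hnrnpc had 1789 ± 1078 CPM (aggregates) and 1039 ± 347 CPM (C13) (SD, n = 3). Apoe, the lipid carrier that disease-associated microglia raise, had 663, 951 and 346 CPM in control and 122, 204 and 38.7 CPM with both agents in nascent RNA (log2 fold change -2.42, SE 0.94). Its class had a nascent median of -0.12, and counts of Apoe share a common factor.

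**Figure D4:**
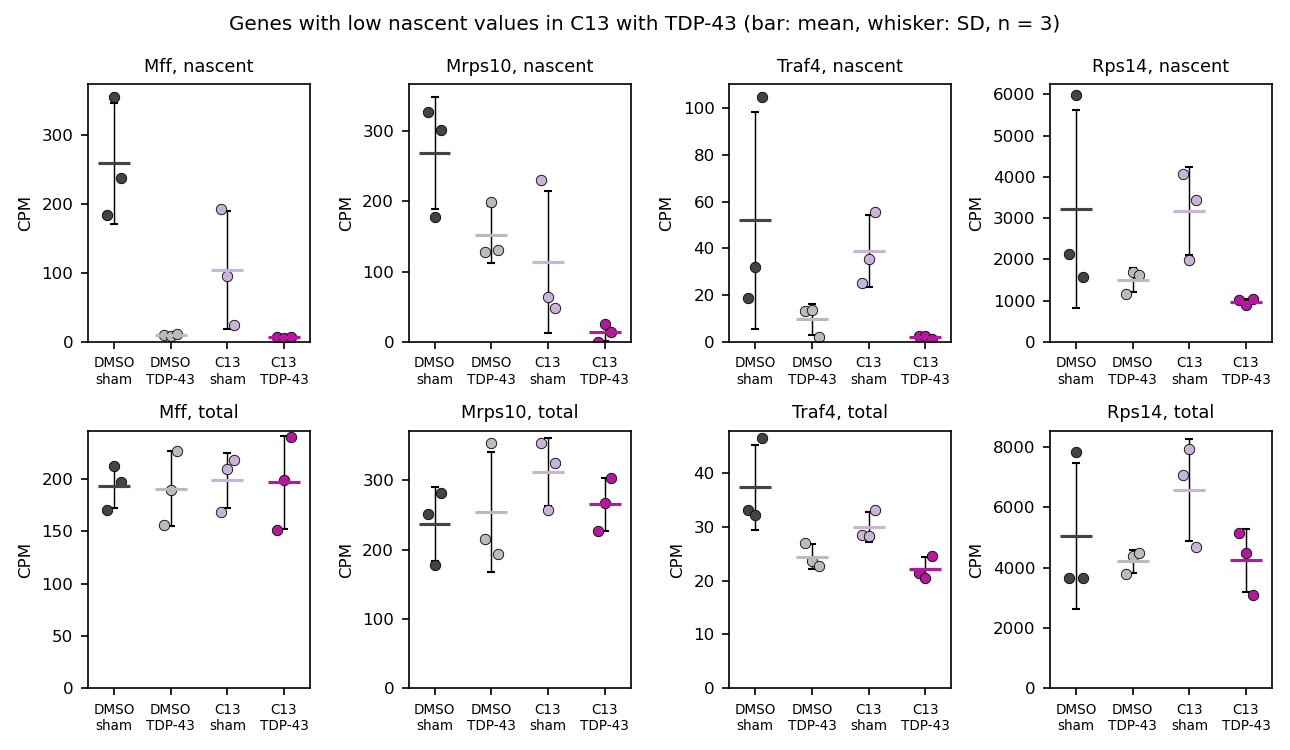
Level in CPM of 4 genes with low nascent values in C13 with TDP-43, in each of the 12 libraries (points), with the mean (bar) and SD (whisker) of each group of 3, nascent in the upper and total RNA in the lower row. Nascent Mff lies between 4.86 and 7.33 CPM in C13 with TDP-43 and between 183 and 355 CPM in DMSO with sham, while total Mff has one range in these groups.

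In total RNA the genes with the smallest p among those without overlap belonged to no one class. Higher with both agents were Nras, a GTPase of the growth factor pathway, with 195, 138 and 251 CPM in control and 386, 316 and 318 CPM treated, and Kdm4a, a histone demethylase, with 510.4, 538 and 607 and 776, 774 and 815 CPM. The log2 fold changes were 0.80 (SE 0.24) and 0.51 (SE 0.17). Kdm4a had 467 ± 75.7 CPM with aggregates alone and 509.6 ± 35.9 CPM with C13 alone (SD, n = 3), and 552 ± 49.5 CPM in control. Synrg, which works in trafficking with the clathrin adaptor AP-1, had 234, 33.4 and 20.9 CPM in control and 435, 751 and 778 CPM treated (log2 fold change 2.77, SE 0.92), with 1 control well above the other 2. Adgre1, which encodes the macrophage marker F4/80, had 40.5, 46.6 and 58.1 and 68.7, 65.9 and 98.5 CPM (log2 fold change 0.68, SE 0.26), while its class of homeostatic microglial genes had a median of 0.022.

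Lower in total RNA were Scarb1, the receptor for high-density lipoprotein, with 99.1, 70.6 and 74.7 CPM in control and 46.7, 54.6 and 49.3 CPM treated, and Cd320, the receptor that takes up vitamin B12, with 67.1, 57.4 and 73.6 and 47.6, 27.4 and 35.0 CPM. Their log2 fold changes were -0.70 (SE 0.22) and -0.85 (SE 0.27). Adcy9, an adenylyl cyclase, was lower in both tables, with 23.6, 16.2 and 13.9 CPM in control and 9.40, 6.04 and 4.96 CPM treated in total RNA and with 0 nascent reads in the treated libraries. Tns2, a tensin of focal adhesions, had 3.52, 2.27 and 5.36 CPM in control and 0 reads treated in total RNA, and Adal, an adenosine deaminase-like enzyme, had 0 reads in control and 7.71, 0.839 and 5.22 CPM treated. Tns2, Adal, Adcy9 and Scarb1 have counts that share a common factor of 2 or more, so a count of 0 sets no firm limit and no fold is given for the zeros.

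The immediate-early genes had a median of -0.11 in total RNA (19 of 27 below 0) and of 0.45 in nascent RNA (11 of 17 above 0), which was -0.013 when scaled to total reads. Jund, a subunit of the transcription factor AP-1, had 135, 169 and 136 CPM in control and 104, 101 and 88.9 CPM with both agents in total RNA, without overlap (log2 fold change -0.58, SE 0.19). With C13 alone Jund had 93.0 ± 15.8 CPM and with aggregates alone 125 ± 4.70 CPM (SD, n = 3). In the class of MAP kinases and their feedback genes, Map2k2, the kinase MEK2, had 95.4, 90.7 and 97.4 and 75.9, 57.4 and 71.3 CPM in total RNA (log2 fold change -0.47, SE 0.21). Dusp1, a phosphatase that turns MAP kinases off, had 1.81, 1.38 and 0.233 CPM in control and 0 reads treated, with 0 reads also with C13 alone. With aggregates alone Dusp1 had 69 reads in total RNA, all of them in replicate 3, which is 1 of the 2 libraries that stood apart. All its counts are multiples of 3, and it overlaps other genes on both strands. The class median was 0.055 in total RNA.

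The medians of stress and housekeeping classes lay near that of all genes in total RNA. Cytosolic chaperones had a median of -0.059 (11 of 28 above 0), chaperones of the endoplasmic reticulum and unfolded protein response genes -0.066 (9 of 30), ATF4 targets -0.010 (14 of 30) and p53 targets 0.11 (13 of 25). In nascent RNA the medians of these classes were -0.31, -0.28, 0.27 and 0.16, and the last pair turned to -0.47 and -0.40 when scaled to total reads. Bbc3, the p53 target PUMA that promotes cell death, had 9.47, 10.3 and 14.6 CPM in control and 5.02, 4.58 and 5.71 CPM with both agents in total RNA, without overlap (log2 fold change -1.16, SE 0.49). Lysosomal and autophagy genes had medians of -0.20 in nascent and -0.011 in total RNA, and MHC class I genes 0.0098 and 0.0097. In the first of these classes Nbr1, an autophagy receptor, had 46.5, 45.9 and 54.2 CPM in control and 25.3, 28.4 and 30.1 CPM with both agents in total RNA, without overlap (log2 fold change -0.81, SE 0.32). Genes of S phase had medians of -0.31 and 0.0095, and mitotic genes -0.13 and -0.13. Prc1, which bundles microtubules in cell division, had 155, 164 and 189 and 108, 126 and 128 CPM in total RNA (log2 fold change -0.48, SE 0.21). Some of these classes had more members lower without overlap than the share over all genes. In total RNA 3 p53 targets were lower (12% against 4.3%) and 0 higher (0% against 3.79%), and 4 mitotic genes were lower (8.33%) and 1 higher (2.08%). In nascent RNA 7 lysosomal and autophagy genes were lower (14% against 5.99%) and 1 higher (2% against 5.1%). No class had a member called by edgeR in either table, while DESeq2 called nascent Mff, of the mitochondrial fission and fusion list, and nascent Mrps10, of the mitochondrial ribosomal list.

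The target of the compound and the aggregated protein were themselves read in the same libraries. Mok, a MAP kinase-like kinase, had 1.39, 0.162 and 3.42 CPM in control and 1.53, 8.22 and 1.33 CPM with both agents in total RNA, with 0 nascent reads in 5 of the 6 libraries and 2 in the other. Its counts share a common factor. Tardbp, the gene of TDP-43, had 927, 763 and 1038 CPM in control and 803, 814 and 1006 CPM with both agents in total RNA, within one range, and 1395, 844 and 948 and 566, 2229 and 1529 CPM in nascent RNA. A kinase inhibitor acts on the protein, so neither level checks the labels. Hspa4, a chaperone of the HSP110 family, had 324, 158 and 404 CPM in control and 187, 241 and 297 CPM with both agents in total RNA, within one range, while C13 alone had 118 ± 18.3 CPM and aggregates alone 138 ± 36.4 CPM (SD, n = 3).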

How the data were processed

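Nascent and total reads were counted in 12 libraries by SLAM-seq, with iodoacetamide treatment of the RNA and QuantSeq 3′ mRNA libraries, per the labels' protocols. The authors deposited whole-number counts per Ensembl gene, 1 table of nascent and 1 of total reads. The build is GRCm38, per the submitters' processing notes. Which aligner, counter and annotation were used, and what made a read nascent, is not given in the sources used here. Of 30994 gene IDs, 30940 matched a symbol. Among the 9932 genes that average over 50 total reads, 1917 have counts that share a common factor of 2 or more in all 24 values, and the reason is not given. Replicates of a group differed beyond sampling noise (chi-square per degree of freedom of at least 27.7), so none was merged.

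Each table was filtered with filterByExpr, scaled by TMM and tested with edgeR 4.0.16 in R 4.3.3 (quasi-likelihood, all 12 libraries in 1 fit, Benjamini-Hochberg threshold 0.05). CPM values are reads scaled to a common library size within a table. SE is the standard error of a log2 fold change. Intervals, floors (3 reads over a group) and limits cover counting error only. The labels call the libraries biological replicates without naming a shared day or batch, so p-values measure the spread between these libraries. The same replicate numbers showed no clear pairing. Correlations of deviations between libraries of the same number were 0.021, -0.032 and 0.015 in nascent and 0.092, -0.014 and 0.13 in total RNA. Between libraries of different numbers they ran from -0.055 to 0.044 in nascent and from -0.17 to 0.098 in total RNA. With 3 libraries a group these values are too few to settle whether the numbers mark pairs.

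The genes named are, in each table, up to 10 higher and 10 lower genes of smallest unadjusted p without overlap and with a mean of at least 20 (nascent) or 100 (total) reads in the higher group, up to 4 members of each list, and 23 fixed genes. Bcor, Matk, Gm11769, Cep95 and Mmp15 lie outside that rule and are named after their values were seen. The gene lists and the comparison were chosen with earlier results of these data known. Leaving out the 2 libraries that stand apart and the NF-kB motif were added after seeing the data. Alternatives were DESeq2 1.42.0, no filter, other library sizes, a replicate block and each library left out. The code was tested on simulated data. Promoter windows are from RefSeq (GRCm38.p6). Protein genes of the mitochondrial genome are not analysed here.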

Additional observations from a re-analysis of the deposited data

How the results depend on the processing

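The labels' replicate numbers were also fitted as a block, although the labels do not say that they mark pairs. With the block edgeR called 0 genes in each table, as without it, and the median of the interferon list in total RNA was 0.55 (0.40 without the block). In nascent RNA the number of genes called was 1 without the filter on low counts, 1 with only the 2 groups in the fit, 1 without the 2 libraries that stand apart and 4 with DESeq2. In total RNA it was 4 without the filter and 7 with DESeq2. Nascent genes at an unadjusted p under 0.05 numbered 187 higher and 242 lower without the filter, 111 higher with only the 2 groups, 13 higher and 242 lower when scaled to total reads, 135 higher and 208 lower without the 2 libraries, and 120 higher with DESeq2. In total RNA they were 232 higher and 261 lower without the filter, 152 higher with only the 2 groups, and 169 higher and 207 lower without the 2 libraries. For nascent reads against the remaining reads, only the 2 groups gave 1 call, 87 higher and 228 lower.

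Leaving out 1 library at a time gave 52 to 86 higher nascent genes (86 without DMSO with sham replicate 2), 79 to 145 higher genes in total RNA (145 without C13 with TDP-43 replicate 1), and 31 to 76 higher and 72 to 164 lower genes in the test against the remaining reads (76 and 72 without DMSO with sham replicate 2). Nascent list medians then ranged from 0.53 to 1.38 (interferon) and -0.072 to 0.21 (NRF2), and in total RNA from 0.23 to 0.60 (interferon), 0.14 to 0.31 (cytokine) and 0.014 to 0.28 (NF-kB). The interferon nascent median was 0.23 without the filter. Scaled to total reads, nascent medians were 0.048 (cytokine), -0.50 (NF-kB), -0.60 (NRF2) and -1.09 (ribosomal), and Sqstm1 and Tnfaip2 reversed in nascent RNA, at -0.017 and -0.046. The cause was not tested. Of 736 values of the 59 gene results named under the alternatives, 722 kept their direction and were not called, where a missing adjusted p counted as not called. A further 12 passed the threshold only under the alternative, and the 2 just given reversed. No gene was called in the main setting, and genes were picked partly by their values in these libraries. So these counts are no measure of robustness. With 3 libraries a group and 767433 to 2722812 nascent reads, low nascent genes have few reads.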

Other observations

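Several further genes had values apart in nascent RNA, given here with no explanation. Nrp1, a coreceptor for semaphorins and vascular growth factors, had 136, 67.3 and 138 CPM in DMSO with sham and 281, 372 and 659.7 CPM in C13 with TDP-43, without overlap. Ehbp1l1, a protein of endosomal traffic, had 281, 131 and 111 and 659.6, 322 and 543 CPM. Nfe2l2, the gene of NRF2 itself, had 17.3, 63.6 and 33.2 and 107, 93.1 and 238 CPM. Rbm5, a splicing regulator, was lower in nascent RNA, with 8.25, 12.2 and 16.6 and 2.44, 0 and 0 CPM, and higher in total RNA, with 6.91, 11.5 and 12.3 and 17.0, 24.1 and 25.5 CPM, and its counts share a common factor of 2 or more. The mitochondrial ribosomal RNA mt-Rnr1 had 3462, 2306 and 5311 CPM in DMSO with sham and 5437, 7590.0 and 6803 CPM in C13 with TDP-43 in nascent RNA, without overlap.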
